A study of Mus musculus with 30 samples.

Results

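EGFRvIII neurospheres were compared with forebrain tissue of E18.5 mouse embryos on Affymetrix arrays. The comparison used 6 neurosphere arrays and 4 forebrain arrays of the 30 arrays in the study. The neurosphere arrays were chosen by their labels, as cultures with at least 1 intact Olig1/2 allele that carried neither a GFP nor an Olig2 virus. The study as a whole asked how the transcriptome of gliomagenic progenitors differs with and without Olig genes. Its other arrays are 6 of Olig1/2-/- neurospheres, 10 of neurospheres with GFP or Olig2 virus, and 4 of E18.5 spinal cord.

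The neurospheres were 6 culture lines, 3 labelled Olig1/2+/+ (lines 2, 3 and 20) and 3 labelled Olig1/2+/- (lines 11, 15 and 26). All 6 lines were Ink4a/Arf-/-, came from E14.5 ganglionic eminences, received human EGFRvIII by retrovirus at P1 and were selected with puromycin at 2 µg/mL. They grew without serum in medium with EGF and bFGF at 20 ng/mL each, and were harvested at a passage between P4 and P15 that is not given for each array. The forebrains were 4 E18.5 samples, 2 labelled Olig2-/- and 2 labelled Olig2+/-, with no viral transduction and no Ink4a/Arf genotype in their labels. The design text calls the same tissue groups Olig1/2-/- and Olig1/2+/-. Cultures and tissue share a mixed Swiss and C57BL/6J background. No forebrain with both Olig2 alleles was on the arrays, so the comparison sets Olig-expressing cultures against tissue with reduced or no Olig2. Culture, EGFRvIII, Ink4a/Arf loss, age and dissected region all differ between the groups, and their parts in any difference below cannot be told apart.

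Neurospheres are floating clusters of neural stem and progenitor cells kept dividing by growth factors. EGFRvIII is a truncated form of the EGF receptor found in human glioblastoma that signals without ligand, in part through the MAP kinase pathway. Ink4a/Arf (Cdkn2a) encodes a brake on the G1 kinases and an activator of p53, while Olig1 and Olig2 are basic helix-loop-helix factors of the ventral forebrain that are needed in the oligodendrocyte lineage. The late embryonic forebrain holds mostly young neurons, with radial glia, early glial precursors, vessels, microglia, meninges and choroid plexus beside them.

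Values are MAS5 signals in arbitrary units, scaled by the submitters so that each array's trimmed mean lies between 499.9 and 500.2 in these 10 arrays. Array pairs correlated at 0.937 to 0.959 among neurospheres, 0.958 to 0.966 among forebrains and only 0.579 to 0.627 between the groups (Pearson's r of log2 signals across genes, which are not independent replicates). The RNA absorbance ratio (A260/A280) in the labels was 1.75 to 1.97 for neurospheres and 2.1 to 2.2 for forebrain without overlap, and the median signal was 157 to 190 against 200 to 212. The log2 ratio of 3′ to 5′ control probe sets, a measure of RNA integrity, was 0.11 to 0.24 in neurospheres against 0.19 to 0.31 in forebrain for beta-actin. For Gapdh it was -0.33 to -0.21 against -0.22 to -0.07. The part of these measures in the results was not tested. All arrays carry a single hybridisation date. Differences are given as log2 of signal plus 16, neurospheres minus forebrain, with the standard error from limma, and a gene was called at a Benjamini-Hochberg adjusted p under 0.05 over all genes tested.

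Of 11972 genes tested, 7696 were called (64.3%), 4050 higher in neurospheres (33.8%) and 3646 lower (30.5%). These shares are the background for every count below, and a list whose shares are near them is no different from the array as a whole. The median difference over all genes tested was 0.02. At a difference of at least 1 on the log2 scale, 1838 genes were higher (15.4%) and 1982 lower (16.6%). The signals of the 6 neurosphere arrays lay wholly above those of the 4 forebrain arrays for 3392 genes (28.3%) and wholly below for 3141 (26.2%).

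Olig1 and Olig2 were far higher in the cultures. Olig2 signals ran from 11500 to 18048 with a median of 14182 in neurospheres, against 179 and 109 in Olig2-/- forebrain and 269 and 519 in Olig2+/- forebrain. Every culture was above every forebrain, and within the tissue both Olig2-/- forebrains lay below both Olig2+/- forebrains. The Olig2 difference was 5.84 ± 0.18 (SE; adjusted p = 6.2e-10), and 5.05 (adjusted p = 3.5e-06) in Olig1/2+/- neurospheres against Olig2+/- forebrain alone. Olig1 ran from 20360 to 30893 in neurospheres and from 1686 to 2187 in forebrain, a difference of 3.69 ± 0.10. In bulk RNA, fewer cells of a type and less RNA per cell cannot be told apart, here and in every result that follows. The position of the Olig and Cdkn2a probe sets relative to the deleted sequences was not analysed here, so their signals check nothing about the deletions.

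Beside Olig2, the largest rises belonged to genes of several kinds. Lgals1, a galactoside-binding lectin, had signals of 20594 to 34119 (median 31532) in neurospheres and 271 to 344 in forebrain, a difference of 6.52 ± 0.12. The immediate early transcription factors Fos and Egr1, both read-outs of growth factor signalling, differed by 5.98 ± 0.32 and 5.46 ± 0.13. Nptx1, a secreted neuronal pentraxin, the winged-helix factor Rfx4, the angiopoietin Angpt2, the vesicle GTPase Rab26 and the tubulin Tubb6 differed by between 5.43 and 5.90. The retinaldehyde dehydrogenase Aldh1a1 rose by 5.87 ± 0.81, with 295 and 340 in lines 20 and 26, 3259 to 4470 in the other 4 lines, and 6 to 19 in forebrain. Lalba, the milk protein alpha-lactalbumin, ranged from 1016 to 14772 over the 6 lines against 25 to 167 in forebrain.

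Among these strongest rises Mycn, a MYC family driver of progenitor growth, could not be given a direction. Its brightest probe set read 25342 to 34735 in neurospheres against 58 to 401 in forebrain, a difference of 7.03 ± 0.36. Another probe set read 33 to 289 in neurospheres against 1587 to 2406 in forebrain (fell by 3.99), and 1 more read 4 to 138 against 308 to 368 (fell by 2.95). The mean of its probe sets differed by 0.03 (adjusted p = 0.92). Over the array, 283 of 7696 called genes (3.68%) had another probe set called the opposite way. So did 9 of the 440 called genes on the lists below: Fbln1, Mycn, Fosl2, Ncl, Pes1, Sgce, Higd1a, Tkt and Gmps.

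The largest falls were of choroid plexus and neuronal genes. Ttr, transthyretin, the main secreted product of choroid plexus, had 18 to 75 in neurospheres against 29997 to 33329 in forebrain, a difference of -9.27 ± 0.22. The microtubule regulator Stmn2 had 16 to 39 in neurospheres against 19577 to 20096, a difference of -8.93 ± 0.14 (adjusted p = 9.5e-12). Stmn4, the cortical transcription factor Neurod6, Ly6h, the neuronal tubulin Tubb3, the migration gene Dcx and the synaptic fusion protein Snap25 followed, with differences between -8.03 and -6.63. Tmem130, Myt1l, Fxyd6 and Tenm2 completed the 12 largest, with differences between -6.54 and -6.43.

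Genes were described in lists for cell types, regions, growth and metabolism. Over the lists with a tested member, the median difference of the members ranged from -4.01 for neurons to 2.53 for genes of the EGF receptor and MAP kinase response, against 0.02 for all genes tested. The upper end depends on the filter on low signals. Without it the median of the EGF receptor and MAP kinase list was 1.515, below that of the mitosis list at 2.317.

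**Figure D1:**
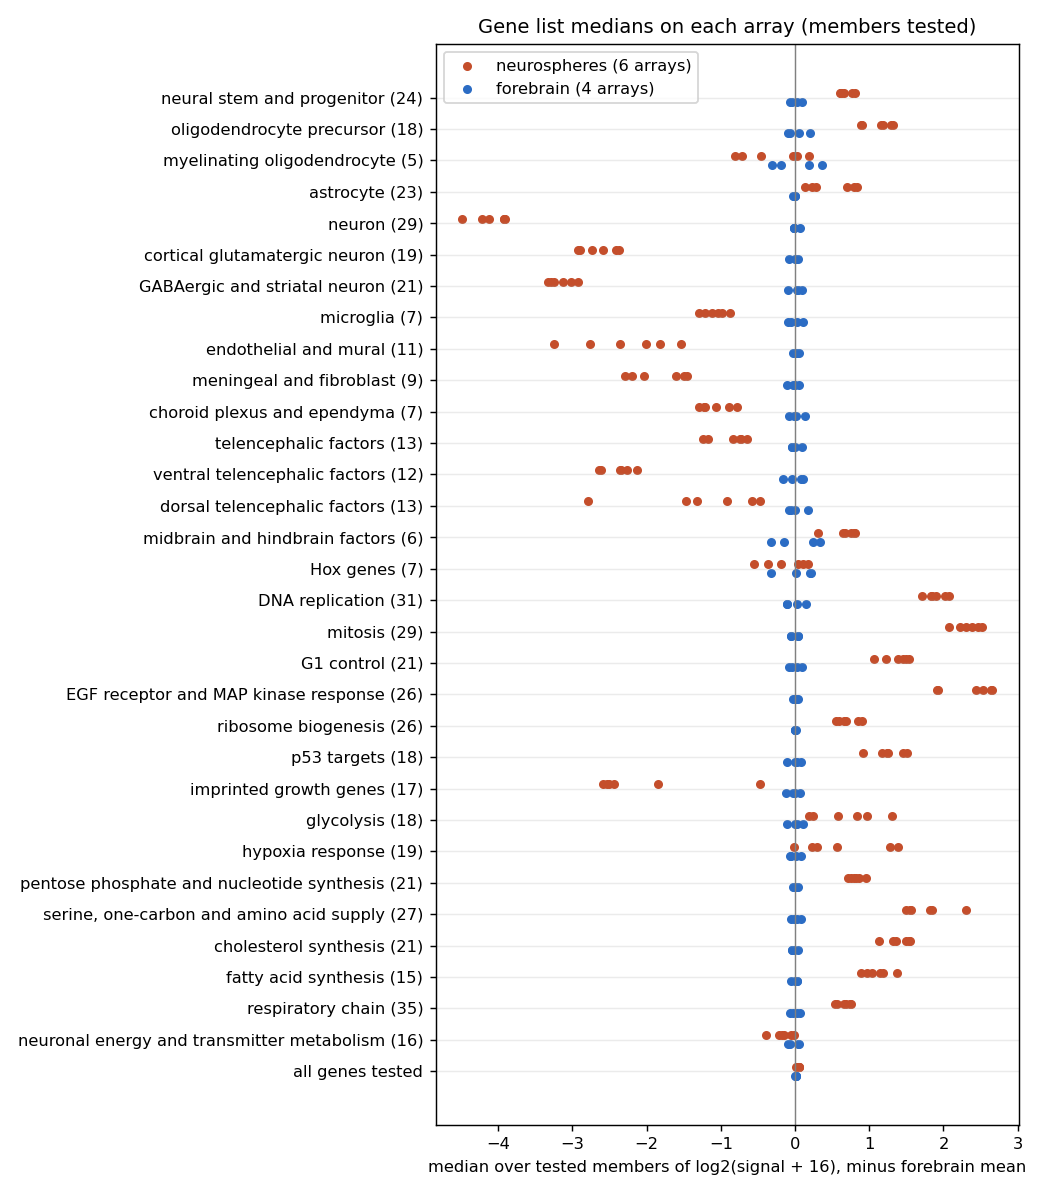
Median over the tested members of each gene list, on each array, of log2(signal + 16) minus the forebrain mean (x axis), with the number of members tested in brackets. Each point is 1 array, neurospheres in red above forebrain in blue. The neuron list lies between -4.48 and -3.91 on all 6 neurosphere arrays and the mitosis list between 2.08 and 2.52. The forebrain arrays scatter around 0 because their own mean was subtracted.

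Every tested member of the general neuron list was lower in the cultures. The list does not hold every neuronal gene, and Nptx1, described above, was higher. Of 30 general neuron genes listed, 29 had a probe set and were tested, and all 29 were called lower, with a median difference of -4.01. For 6 of the 29 no neurosphere array reached its own median signal, so those passed the filter through forebrain alone, and the remaining 23 were all lower too. The nuclear marker Rbfox3 had 178 to 365 in neurospheres against 2470 to 3996 in forebrain. The smallest differences were those of Map2 at -0.95 ± 0.10, a dendritic microtubule protein with signals of 5289 to 8064 in neurospheres against 12753 to 13406, and of Syn1 at -1.92 ± 0.13. Dpysl3, a cytoskeletal protein of growing axons, also kept high signals in culture, at 4170 to 7718 against 20774 to 21848.

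Markers of particular neuron classes were low as well. Among the genes of cortical glutamatergic neurons, 17 of 19 tested were lower and none higher, with a median of -2.87. Neurod6 had 1 to 43 in neurospheres and 5056 to 5226 in forebrain, and Tbr1, a factor of deep-layer cortical neurons, had 5 to 68 against 1210 to 1803. Bcl11b, the factor of corticospinal and striatal neurons, had 147 to 218 against 4081 to 4956. Of the GABAergic and striatal list 18 of 21 tested were lower and none higher, with a median of -3.10, led by Foxp1 (-3.63 ± 0.14), Dlx2 (-3.02 ± 0.16), Sst (-5.62 ± 0.40) and Dlx5 (-3.10 ± 0.21). For 10 of these 21, and for 6 of the 19 cortical genes, no neurosphere array reached its median. Gad1, the enzyme that makes GABA, had 114 to 1027 in neurospheres against 3087 to 3707 in forebrain.

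Neural stem and progenitor genes moved in both directions. Of 24 tested, 15 were higher (background 33.8%) and 7 lower, with a median of 0.61. Vimentin (Vim), the intermediate filament of radial glia and other progenitors, had 34980 to 39797 in neurospheres against 4950 to 6730 in forebrain, a difference of 2.72 ± 0.06 (adjusted p = 8.3e-11). Nestin (Nes), its partner in progenitors, differed by 2.25 ± 0.08, with 4660 to 6266 against 1117 to 1197. The SOXB1 factors split: Sox3 rose by 2.49 ± 0.10 and Sox2 by 1.25 ± 0.11, while Sox1 was lower by -1.26 ± 0.15.

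The Notch pathway, which holds progenitors undifferentiated, was split by its targets. The receptor Notch1 rose by 1.67 ± 0.15, the ligand modifier Lfng by 2.69 ± 0.14 and the target Hes1 by 2.46 ± 0.13, with Hes1 signals of 1424 to 2093 in neurospheres against 266 to 324. Hes5, the other Notch target on the list, had 93 to 278 in neurospheres against 575 to 677 in forebrain, a difference of -1.80 ± 0.22. Notch2 was also lower, at -0.51 ± 0.17, and the ligand Dll1 higher, at 0.56 ± 0.11. Fabp7, the fatty acid binding protein of radial glia, was among the brightest genes in both groups, with 20955 to 27356 against 16767 to 18532. The other lower members were Prom1 (-2.91 ± 0.31), a surface protein used to sort stem cells, Lhx2 (-2.12 ± 0.14), the RNA-binding protein Msi1 (-1.62 ± 0.12) and the adherens junction cadherin Cdh2 (-1.16 ± 0.11).

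The oligodendrocyte precursor list was split between high and low members in the same cultures. Of 26 genes listed, 24 had a probe set and 18 were tested, of which 10 were higher and 5 lower, with a median of 1.15. Without the filter on low signals the same list had 24 genes, 10 higher and 7 lower, with a median of 0.13. The higher members were Olig1, Olig2, the SOX factors Sox8 (2.67 ± 0.20) and Sox6 (0.89 ± 0.14), the homeodomain factor Nkx2-2 (2.58 ± 0.29), Cspg4 (1.59 ± 0.18), which encodes the proteoglycan NG2, and Ptprz1, Bcan, Epn2 and Bcas1. Bcan, brevican, had 15286 to 19226 in neurospheres against 3626 to 5620 in forebrain.

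Several defining genes of the lineage did not rise with Olig2. Pdgfra, the PDGF receptor that marks these precursors in the embryo, stayed under the filter with 35 to 208 in neurospheres and 92 to 194 in forebrain, and the groups overlapped. Sox10, which acts downstream of Olig2 during development, had 223 to 425 in neurospheres against 229 to 514, a difference of -0.10 ± 0.20 (adjusted p = 0.68). Gpr17, a receptor of committed precursors, read 9 to 35 against 48 to 253. Tenascin-R (Tnr), Cdo1, Rlbp1, versican (Vcan) and Lhfpl3 were lower, by between -3.36 and -0.99. Since 2 of the 4 forebrains carry no Olig2 allele, the forebrain levels of this list are not those of a wild-type forebrain.

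Myelin genes were low in both groups. Of 14 genes with a probe set, 5 were tested, 1 rose and 1 fell. Cnp, an enzyme of oligodendrocyte membranes that precursors also make, rose by 1.96 ± 0.21, with 1522 to 3492 in neurospheres against 555 to 737. Mag fell by 1.20 on the log2 scale (SE 0.44, adjusted p = 0.034), but was not called without line 2, 11 or 26, null forebrain 2 or heterozygous forebrain 3, with differences of -1.09 to -0.98. Mbp had 115 to 272 against 164 to 370, a difference of -0.39 ± 0.28 (adjusted p = 0.25).

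The astrocyte list held 10 higher and 7 lower members of 23 tested, with a median of 0.17. Mlc1, a membrane protein of astrocyte endfeet, had 4636 to 6014 in neurospheres against 253 to 459 in forebrain, a difference of 3.90 ± 0.13. The hyaluronan receptor Cd44 (3.05 ± 0.20), Acsbg1 (2.82 ± 0.15), the matrix protein Sparcl1 (2.80 ± 0.07) and the calcium-binding protein S100b (2.73 ± 0.48) also rose, as did Nfia, a switch factor of gliogenesis (0.95 ± 0.08). Gfap, the intermediate filament of mature astrocytes, had 188 to 254 in 5 lines, 1318 in line 3, and 392 to 512 in forebrain, and was not called (-0.51 ± 0.44, adjusted p = 0.33), although without line 3 it was called lower (-0.94, adjusted p = 0.0009). Aldh1l1 (-2.54 ± 0.23), the glutamate transporter Slc1a2, Apoe, Clu, Nfib and Ntsr2 were lower. The largest fall of the list was that of Id4, an inhibitor of basic helix-loop-helix factors, with 64 to 202 in neurospheres against 5532 to 6873 in forebrain, a difference of -5.36 ± 0.24 (adjusted p = 8.7e-09).

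**Figure D2:**
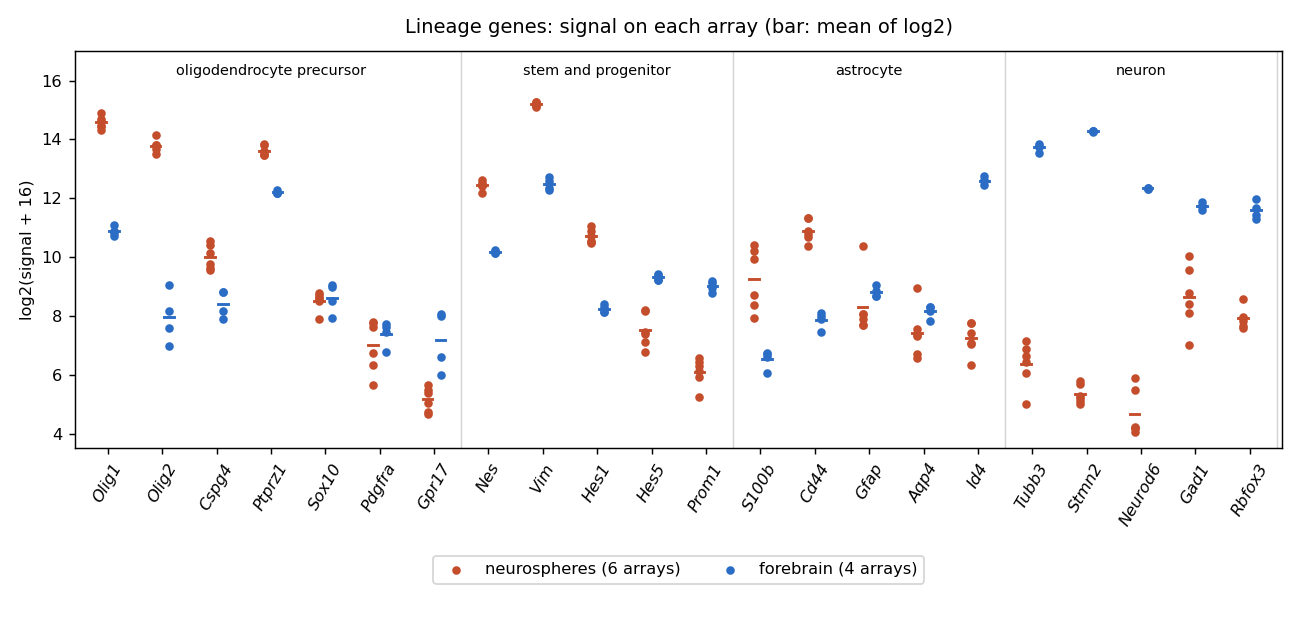
Log2(signal + 16) of genes that mark 4 cell classes on each array (y axis), neurospheres in red left of forebrain in blue, bars at the group means. The groups are far apart for Olig1, Olig2, Vim, Id4 and Stmn2 and overlap for Sox10, Pdgfra, Gfap and Aqp4.

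Tested markers of microglia, vessels and meninges were more often lower than higher in the neurospheres. For 3 of 7 microglial, 4 of 11 vascular and 3 of 9 meningeal genes tested, no neurosphere array reached its median. Those genes passed the filter through forebrain alone. Among the other members tested, 2 of 4 microglial, 5 of 7 vascular and 3 of 6 meningeal genes were lower. In the same order, 1, 1 and 3 of them were higher. Of 20 microglial genes listed, 19 had a probe set, 7 were tested and 5 were lower, with the chemokine receptor Cx3cr1 at 13 to 96 in neurospheres against 257 to 371. The receptor Csf1r still read 427 to 584 in neurospheres against 883 to 1254. The 1 microglial list gene that rose was Pf4, a platelet and macrophage chemokine, with 4536 to 8077 in neurospheres against 259 to 313, a difference of 4.46 ± 0.15, while Aif1, Itgam and Ptprc stayed under the filter. The list's summed signal, Pf4 included, was 6704 to 10274 in neurospheres against 4012 to 4891 in forebrain.

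Of 11 vascular genes tested 9 were lower, among them the pericyte genes Rgs5 (-4.43 ± 0.32) and Pdgfrb (-3.41 ± 0.40), and 1, Emcn, was higher (0.89 ± 0.26). In null neurospheres Emcn was not higher than in forebrain (-0.32, adjusted p = 0.17). The endothelial Pecam1 read 22 to 45 in neurospheres and 172 to 300 in forebrain. It was not tested, because fewer than 4 of the 10 arrays reached their median signal. Of 9 meningeal and fibroblast genes tested 6 were lower, including the collagen Col3a1 with 25 to 160 against 626 to 903, and 3 were higher. The higher ones were Foxc1, Fbln1, whose probe sets disagreed, and Igfbp2, a binding protein for insulin-like growth factors that radial glia also make, with 30540 to 36813 in neurospheres against 3306 to 3569. The list's summed signal was 33684 to 40837 in neurospheres and 9256 to 10209 in forebrain. None of the red cell genes was tested, and Hbb-y and Alas2 read at most 21 in neurospheres and at most 206 in forebrain.

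The choroid plexus and ependyma list had 3 lower members and 1 higher of 7 tested. For 2 of the 7 no neurosphere array reached its median, and of the other 5 tested 1 was lower and 1 higher. Ttr, Aqp1 and Clic6 were lower. Otx2, a homeodomain factor of the choroid plexus and of the anterior brain, had 369 to 4678 in neurospheres (median 944) against 248 to 330 in forebrain, a difference of 1.77 ± 0.39, with all cultures above all forebrains. In null neurospheres the difference of Otx2 was -0.09 (adjusted p = 0.93). The part of these other cell types in the differences of the whole tissue was not tested.

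Regional identity was read from transcription factors, with 4 E18.5 spinal cord samples, whose labels carry the same numbers and genotypes as the forebrains, as a second tissue. That comparison tested 12140 genes and called 8051 (66.3%), 4283 higher in neurospheres (35.3%) and 3768 lower (31.0%). It uses the same neurosphere arrays, so the values of both comparisons are given side by side and not as independent evidence. Some regional genes, 6 Hox genes among them, were not analysed here.

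Genes of telencephalic identity were partly kept in the cultures. Of 13 telencephalic factors tested against forebrain 9 were lower and none higher, with a median of -0.81, while against spinal cord 6 of 11 tested were higher and 3 lower. For 3 of the 13 no neurosphere array reached its median. Of the 9 that reached it in at least 1 array of each group, 6 were lower than in forebrain. Lhx2 had 390 to 608 in neurospheres, 2035 to 2385 in forebrain and 49 to 107 in spinal cord, in 3 groups that do not overlap. Emx2 had 275 to 524 in neurospheres against 586 to 629 in forebrain and 5 to 44 in spinal cord. Pou3f3, a POU factor of cortical progenitors, had 3980 to 4591 against 5427 to 6482 and 1401 to 1593. Six3 had 391 to 1136 in neurospheres against 376 to 482 in forebrain (0.60 ± 0.28, adjusted p = 0.078) and 78 to 197 in spinal cord, and it was called higher than in forebrain without line 2 or line 11 (0.76 in each case). Going the other way, Zic1 had 10 to 100 in neurospheres, 3918 to 4928 in forebrain and 5934 to 7852 in spinal cord.

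Ventral and dorsal factors that act in neuronal precursors were low in culture. Apart from Olig1 and Olig2, no ventral telencephalic factor was called higher, and 8 of 12 tested were lower, with a median of -2.49 that covers 7 genes which reached the median in no neurosphere array. Dlx1, Dlx2, Dlx5, Isl1, Lhx6, Lhx8, Meis2 and Vax1 were the lower ones. The medial eminence factor Nkx2-1 had 15 to 92 in neurospheres against 20 to 104 in forebrain, and the lateral eminence factors Gsx1 and Gsx2 had 6 to 57 against 52 to 222. The cultures were taken from ganglionic eminences, and the forebrain at E18.5 includes cortex, striatum and their later-born cells.

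Of 13 dorsal factors tested 8 were lower and none higher, with a median of -0.97. For 4 of the 13 no neurosphere array reached its median, and of the other 9 tested 4 were lower. Without the filter the median was -0.64. The dorsal factors with the largest falls, Tbr1, Fezf2, Neurog2, Eomes and Emx1, reached signals no higher than 177 on any neurosphere array. Pax6, a factor of dorsal progenitors, was uneven: it read 25 and 100 in lines 2 and 3, 459 to 546 in the other 4 lines, and 427 to 586 in forebrain (-0.97 ± 0.54, adjusted p = 0.14). Without line 20 Pax6 was called lower (-1.47, adjusted p = 0.00068), and in null neurospheres it was higher than in forebrain (0.45, adjusted p = 0.018). The patterning genes Gli3, Lef1, Dmrta2 and Wnt7a did not pass the test, with differences between -0.44 and -0.14.

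Genes of posterior regions mostly stayed under the filter in the comparison with forebrain. Among 6 midbrain and hindbrain factors tested, 3 were higher than in forebrain: Irx2 (2.42 ± 0.42), Irx5 (1.43 ± 0.20) and Irx3 (0.88 ± 0.20). Irx3 had 262 to 498 in neurospheres against 172 to 231 in forebrain and 350 to 500 in spinal cord. En2, a midbrain factor, read 735 in line 20 and 125 to 191 in the other lines, against 25 to 94 in forebrain. Of 33 Hox genes with a probe set only 7 were tested against forebrain, where Hoxa3 (1.84 ± 0.50) and Hoxa5 (1.38 ± 0.48) were higher and Hoxc6 lower (-0.44 ± 0.16). Hoxc6 lost its call without line 11, 20 or 26, null forebrain 2 or either heterozygous forebrain (-0.45 to -0.36) and under both other scalings. Hoxa5 had 575 to 821 in neurospheres, 40 to 563 in forebrain and 650 to 920 in spinal cord, and was not called against spinal cord (-0.23, adjusted p = 0.12), nor against forebrain without heterozygous forebrain 3 or 4 (adjusted p = 0.06 and 0.07). As means of their probe sets, Hoxa5 (-1.36, adjusted p = 0.00053) and Hoxa3 (-0.96, adjusted p = 0.013) were called lower than in spinal cord. Their level relative to spinal cord therefore depends on the probe set. With each gene read from its brightest probe set, 19 of 22 tested Hox genes were lower against spinal cord and none higher, with a median of -3.63. Hoxc8 had 6 to 117 in neurospheres and 8 to 90 in forebrain, against 4339 to 6598 in spinal cord.

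**Figure D3:**
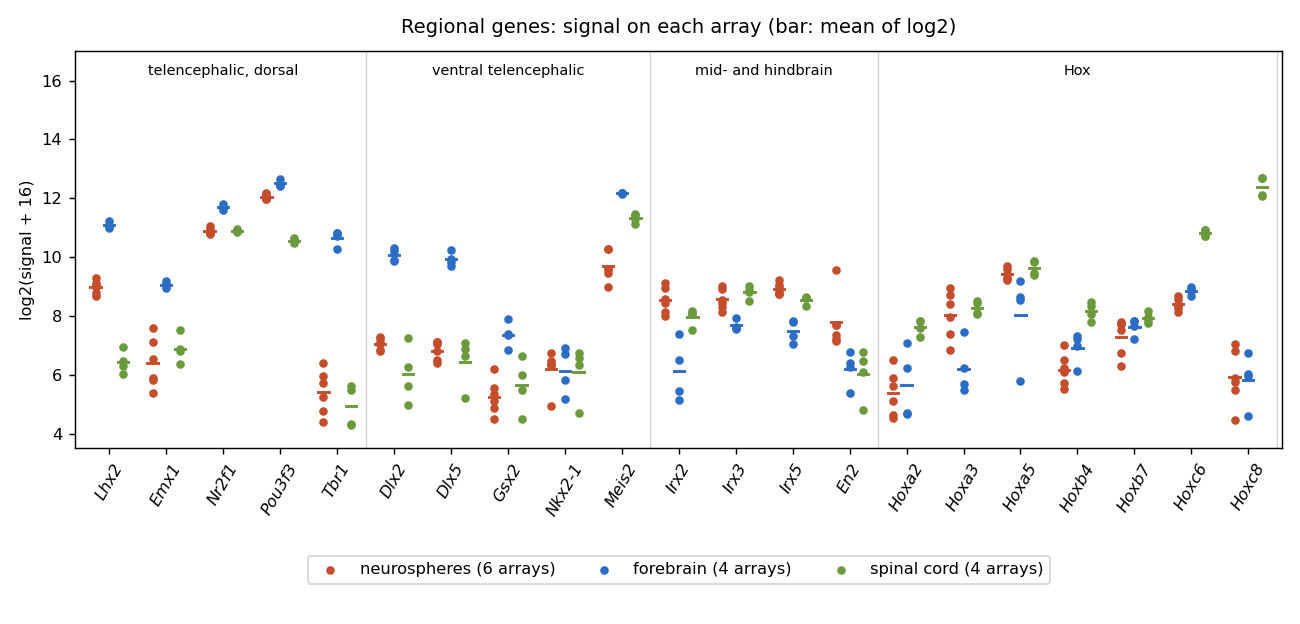
Log2(signal + 16) of regional transcription factors on each array (y axis), neurospheres in red, forebrain in blue and spinal cord in green from left to right, bars at the group means. Lhx2 lies between the 2 tissues, Dlx2, Dlx5, Tbr1, Hoxa3 and Hoxa5 overlap with spinal cord, and Hoxc6 and Hoxc8 lie far below it. Each gene is read from its brightest probe set. As means of their probe sets, Hoxa3 and Hoxa5 were called lower than in spinal cord.

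Most growth genes rose. In the EGF receptor and MAP kinase list 19 of 26 tested genes were higher and 2 lower, with a median of 2.53. For 3 of the 26 no forebrain array reached its median. Without the filter 19 of 30 were higher and 2 lower, with a median of 1.515. Egfr itself had 3320 to 4902 in neurospheres against 366 to 538 in forebrain, a difference of 3.18 ± 0.14 (adjusted p = 6.2e-09). Of its 6 tested probe sets 4 were called higher, by 1.97 to 3.28, and 2 were not called. Whether these mouse probe sets also hybridise to the human EGFRvIII transcript was not tested.

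Transcription factors and feedback inhibitors of the MAP kinase pathway rose together. The ETS factors Etv4 and Etv5 differed by 4.50 ± 0.16 and 3.88 ± 0.09, with Etv5 at 10782 to 13649 in neurospheres against 608 to 946. The Sprouty inhibitors Spry4 (4.94 ± 0.18), Spry1 (3.77 ± 0.12) and Spry2 (3.04 ± 0.07), the phosphatases Dusp5 (4.51 ± 0.29) and Dusp6 (3.85 ± 0.14) and the receptor inhibitor Lrig1 (4.02 ± 0.32) were higher on every culture array than on any forebrain array. Spred1 rose by 2.20 ± 0.12 and Spred2 by 0.81 ± 0.08, whereas Spred3 was not called. The lower members were Dusp4 (-0.64 ± 0.18), which was higher than forebrain in null neurospheres (1.31), and Fosl2 (-1.18 ± 0.33), whose probe sets disagreed. The feedback inhibitor Errfi1 and the ligand Tgfa showed differences of -0.21 ± 0.20 and 0.02 ± 0.15, and the ligand Hbegf rose by 0.44 ± 0.16.

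Genes that control entry into S phase followed the same direction with named exceptions. Of 21 tested 16 were higher and 3 lower, with a median of 1.51, where Mycn, counted as higher by its brightest probe set, has no settled direction. Cyclin D1 (Ccnd1), the D cyclin driven by growth factors, had 21679 to 27214 in neurospheres against 918 to 1137 in forebrain, a difference of 4.61 ± 0.08 (adjusted p = 9.5e-12). Cyclin D2 and D3 rose less, by 1.01 ± 0.17 and 0.88 ± 0.12, and the kinases Cdk2, Cdk6 and Cdk4 by 2.94 ± 0.14, 2.05 ± 0.23 and 0.91 ± 0.09. Inhibitors of these kinases rose beside them: Cdkn2b by 4.73 ± 0.25, Cdkn2c by 2.83 ± 0.08, Cdkn1a by 2.35 ± 0.16 and Cdkn1b by 0.68 ± 0.16. Cdkn1c, the imprinted inhibitor, was lower by -2.27 ± 0.28, as were Mycl (-1.35 ± 0.16) and the retinoblastoma gene Rb1 (-0.54 ± 0.12). Cdkn2a, deleted in the cultures according to their labels, was under the filter, with 38 to 108 in neurospheres against 56 to 78 in forebrain, in overlapping ranges. Myc rose by 1.51 ± 0.10, with 1603 to 2906 against 629 to 831.

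DNA replication genes were almost all higher. Of 31 tested 30 were called higher and none lower, with a median of 1.92, and only Gins3 was not called (0.33 ± 0.20). All 31 were tested without the filter too, with the same counts. Of the helicase subunits, Mcm3 had the largest difference, 3.12 ± 0.17, with 2155 to 3701 in neurospheres against 252 to 420 in forebrain, and Mcm7 the smallest, 1.25 ± 0.14. The loading factor Cdt1 rose by 2.58 ± 0.16, thymidine kinase Tk1 by 3.77 ± 0.22, the ribonucleotide reductase subunits Rrm1 and Rrm2 by 1.99 ± 0.12 and 2.42 ± 0.17, and the sliding clamp Pcna by 1.92 ± 0.12.

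Mitotic genes behaved alike. Of 29 tested 28 were higher and none lower, with a median of 2.32. Mki67, the proliferation antigen, had 5007 to 6793 in neurospheres against 693 to 985 in forebrain, a difference of 2.81 ± 0.10 (adjusted p = 2.1e-09), and Top2a, a topoisomerase of dividing cells, had 4670 to 5962 against 805 to 1002. The centromere histone Cenpa (3.35 ± 0.14) and the checkpoint kinase genes Bub1b (3.30 ± 0.18) and Bub1 (3.23 ± 0.19) differed most. The spindle factor Tpx2 was not called (0.12 ± 0.12).

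Promoters of both lists were read in the RefSeq table for GRCm38.p6, from 250 bases before to 50 bases after the gene start, because all but 1 tested member of each list were called higher. Only some of the matched promoters are printed, 2 with each motif. E2F factors act on many replication genes and the CHR element (TTTGAA, bound by the MuvB complex) on many mitotic genes. Below, capitals mark TTTCCCGC or TTTGGCGC on either strand in Mcm3 (chr1:20820263-20820562, minus strand) and Cdt1 (chr8:122567765-122568064, plus strand), and TTTGAA on either strand in Top2a (chr11:99024140-99024439, minus strand) and Mki67 (chr7:135716330-135716629, minus strand). Each is shown 5′ to 3′ on the gene's own strand.
Mcm3: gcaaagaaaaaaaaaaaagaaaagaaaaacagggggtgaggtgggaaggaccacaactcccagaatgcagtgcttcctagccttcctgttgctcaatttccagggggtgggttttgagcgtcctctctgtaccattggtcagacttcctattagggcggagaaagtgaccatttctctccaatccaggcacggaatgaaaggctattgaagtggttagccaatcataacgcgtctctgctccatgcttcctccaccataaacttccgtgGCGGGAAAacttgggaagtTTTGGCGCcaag
Cdt1: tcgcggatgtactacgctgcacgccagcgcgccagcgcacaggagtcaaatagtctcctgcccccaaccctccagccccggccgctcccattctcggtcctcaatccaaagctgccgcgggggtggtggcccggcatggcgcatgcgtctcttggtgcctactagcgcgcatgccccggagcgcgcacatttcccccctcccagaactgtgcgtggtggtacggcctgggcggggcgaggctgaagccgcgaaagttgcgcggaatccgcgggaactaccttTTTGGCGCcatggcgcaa
Top2a: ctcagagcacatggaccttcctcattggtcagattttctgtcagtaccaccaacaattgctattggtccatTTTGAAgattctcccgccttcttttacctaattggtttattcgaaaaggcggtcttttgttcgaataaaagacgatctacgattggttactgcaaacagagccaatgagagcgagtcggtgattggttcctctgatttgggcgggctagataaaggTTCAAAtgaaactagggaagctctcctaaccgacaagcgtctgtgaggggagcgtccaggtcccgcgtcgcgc
Mki67: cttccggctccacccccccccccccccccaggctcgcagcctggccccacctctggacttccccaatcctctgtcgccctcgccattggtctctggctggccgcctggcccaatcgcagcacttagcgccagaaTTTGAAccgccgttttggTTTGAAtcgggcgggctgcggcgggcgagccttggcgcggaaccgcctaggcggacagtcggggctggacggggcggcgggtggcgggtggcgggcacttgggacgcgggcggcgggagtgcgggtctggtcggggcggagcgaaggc

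Of the genes listed, 26 of 33 for DNA replication and 24 of 30 for mitosis had a promoter in the table. The E2F-type letters TTTCCCGC or TTTGGCGC, on either strand, occurred in 9 of the 26 DNA replication promoters (34.6%), against 1.63% of all 27025 promoters and 3.14% of the promoters of genes tested, and in 0 of 24 mitotic promoters. TTTGAA occurred in 19 of 24 mitotic promoters (79.2%), against 18.1% of all promoters and 11.5% of those of genes tested, and in 4 of 26 replication promoters (15.4%). The CCAAT box, which overlaps neither motif in its letters, was in 83.3% of mitotic and 61.5% of replication promoters. It was in 37.9% of all promoters and 38.6% of those of genes tested. In the cholesterol synthesis list, described below, 16 of 17 promoters held it (94.1%), so it was not particular to mitotic or replication genes. These matches describe the letters of the windows and were not tested for binding.

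Genes of ribosome biogenesis rose by smaller amounts. Of 26 tested 19 were higher and none lower, with a median of 0.62. The nucleolar factors Nolc1 (1.58 ± 0.12), Gnl3 (1.28 ± 0.11), Npm1 (0.98 ± 0.07) and Ncl (0.96 ± 0.08) led by p, and Ncl had 1 dim probe set called the opposite way. Npm1 signals were 8802 to 11674 in neurospheres against 4729 to 5220 in forebrain.

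Genes known as targets of p53 were also higher in the cultures. Of 18 tested 15 were higher and 2 lower, with a median of 1.29. Beside Cdkn1a, the list was led by Ccng1 (1.51 ± 0.12), Sesn2 (3.77 ± 0.25) and Gtse1 (3.63 ± 0.26). Sesn2, which responds to amino acid stress as well, had 522 to 1034 in neurospheres against 14 to 98 in forebrain. Gtse1 is also a cell cycle gene, and Btg2 (2.49 ± 0.21) is also an immediate early gene. The pro-apoptotic Bbc3 (-0.95 ± 0.20) and Rrm2b (-0.57 ± 0.16) were lower. The filter admitted 4 of the 18 through neurospheres alone, and Pmaip1, Perp, Plk3, Fas and Tnfrsf10b were not tested.

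Imprinted genes were split, mostly downward. Of 17 tested 10 were lower and 5 higher, with a median of -2.27. Meg3, a maternally expressed noncoding RNA, had 314 to 451 in neurospheres against 13412 to 15089 in forebrain, a difference of -5.17 ± 0.09 (adjusted p = 1.6e-11), and Rian of the same cluster differed by -4.18 ± 0.20. Nnat had 635 to 3521 in neurospheres against 35920 to 38996, and Ndn had 681 to 2254 against 13792 to 16171. Both are also expressed in neurons, whose 29 tested markers were all lower, and the part of neurons in these values was not tested. Going the other way, Mest had 13713 to 23058 in neurospheres against 1471 to 1939 (3.37 ± 0.11), and Peg10 and the receptor Igf2r rose by 2.24 ± 0.23 and 1.61 ± 0.12.

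Metabolic genes rose in most of the lists examined, but not in all. Of 18 glycolytic genes tested 9 were higher and 4 lower, with a median of 0.67. Against spinal cord 8 of 18 were higher (background 35.3%) and 7 lower (background 31.0%), with a median of 0.11. The values that follow are against forebrain. The common isoforms rose: Ldha had 23257 to 31550 in neurospheres against 5423 to 7539 (2.04 ± 0.10), Aldoa 15113 to 22610 against 4488 to 5309 (1.83 ± 0.11) and Pkm 21725 to 26188 against 6155 to 7569 (1.76 ± 0.08). Hk2, the hexokinase of growing cells, rose by 1.90 ± 0.29. The 4 lower members were Eno2, the neuronal enolase (-3.20 ± 0.23), the platelet-type phosphofructokinase Pfkp (-3.61 ± 0.40), the neuronal glucose transporter Slc2a3 (-1.26 ± 0.33) and Hk1 (-0.67 ± 0.13). Ldhb, Slc2a1 and Pfkm were not called.

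The hypoxia list had 9 of 19 tested higher (background 33.8%) and 1 lower, with a median of 0.47. Adm (3.90 ± 0.22), Ero1a (2.51 ± 0.45), P4ha1 (2.23 ± 0.17), Ak4 (2.14 ± 0.14) and the vessel growth factor Vegfa were higher, while Car9, Ankrd37, Bnip3 and Ddit4 were not called. The lower member was Ndrg1 (-1.18 ± 0.41), which was not called without line 15 or without any 1 of the forebrains (-1.21 to -1.07). Ero1a ran from 2057 to 13089 over the 6 lines, against 734 to 1007 in forebrain.

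Genes of serine, one-carbon and amino acid supply were among the most uniform. Of 27 tested 24 were higher and 1 lower, with a median of 1.73. The serine synthesis enzymes Phgdh, Psat1 and Psph rose by 1.80 ± 0.07, 2.87 ± 0.10 and 1.73 ± 0.17, with Psat1 at 7676 to 9852 in neurospheres against 1072 to 1339. The mitochondrial folate enzymes Shmt2, Mthfd2 and Mthfd1l rose by 2.30 ± 0.13, 2.36 ± 0.14 and 2.78 ± 0.14, and the cytosolic Shmt1 and Mthfd1 by 0.60 ± 0.19 and 1.05 ± 0.23. The transcription factors of the amino acid response, Atf4 (1.73 ± 0.16) and Atf5 (2.51 ± 0.18), rose with the transporters Slc7a5 (1.85 ± 0.18) and Slc3a2 (1.81 ± 0.17) and with Asns (1.69 ± 0.19). Slc7a3, a cationic amino acid transporter, was the lower member (-0.55 ± 0.19), not called without null forebrain 2 or heterozygous forebrain 3 (-0.50 in each case), and 5 of the 27 passed the filter through neurospheres alone.

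Nucleotide synthesis followed in part, with 13 of 21 higher and 3 lower and a median of 0.92. Pgls (0.92 ± 0.07) and Pgd (1.03 ± 0.08) of the pentose phosphate pathway and Paics (0.95 ± 0.07) of purine synthesis were higher with nearly the same size. Gmps gave 1.58 ± 0.10 from its brightest probe set, but 2 others were called lower, by -1.65 and -2.14, so its direction is not settled. The lower members were Nme1 (-0.86 ± 0.28), Prps1 (-0.45 ± 0.09) and Impdh1 (-0.31 ± 0.12). Nme1 was not called without null forebrain 2 (-0.65) or heterozygous forebrain 3 (-0.84), nor Impdh1 without line 2, 3 or 15, null forebrain 1 or either heterozygous forebrain (-0.34 to -0.24).

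Lipid synthesis rose in both of its branches. Of 21 cholesterol genes tested 18 were higher and none lower, with a median of 1.46. The feedback protein Insig1 had 4507 to 6059 in neurospheres against 1032 to 1120 in forebrain (2.32 ± 0.09), and Cyp51, Stard4 and Idi1 rose by 2.05 ± 0.12, 1.93 ± 0.10 and 1.53 ± 0.10. Hmgcs1, the synthase at the entry to the pathway, had 20966 to 30996 against 21611 to 24746 and was not called (0.14 ± 0.11), nor was the regulator Srebf2 (0.26 ± 0.13). Of 15 fatty acid genes 12 were higher and 1 lower, with a median of 1.08. The desaturase Scd1 had 6715 to 10142 in neurospheres against 1152 to 1293 (2.70 ± 0.08), Thrsp, a lipogenic nuclear protein, had 3258 to 4772 against 232 to 445 (3.58 ± 0.11), and Acss2 rose by 2.51 ± 0.11. Fatty acid synthase (Fasn) differed by 0.02 ± 0.13 and acetyl-CoA carboxylase (Acaca) was lower by -0.50 ± 0.09, or by -0.14 (not called) as the mean of its probe sets.

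Relative to forebrain, respiratory chain genes rose by small and even steps. Of 35 tested 31 were higher and none lower, with a median of 0.68, and all 35 reached the median signal in at least 1 array of each group. Against spinal cord the rise was smaller. There 21 of 35 were higher (background 35.3%) and 3 lower (background 31.0%), with a median of 0.24. Cytochrome c (Cycs) had 13970 to 16355 in neurospheres against 5695 to 6263 (1.33 ± 0.06, adjusted p = 8.3e-09), and Cox8a, Uqcrfs1 and Uqcrb rose by 1.23 ± 0.09, 1.08 ± 0.07 and 0.75 ± 0.06. Cox5b, Ndufa5, Ndufb9 and Ndufs4 were not called. In the list of neuronal energy and transmitter metabolism 7 of 16 were lower, including the glutamate transporter gene Slc17a6 (-3.71 ± 0.35), and 3 were higher: Ckb, brain creatine kinase, with 38640 to 48109 in neurospheres against 8504 to 9117 (2.33 ± 0.07), and the Krebs cycle subunits Idh3g (1.16 ± 0.07) and Idh3a (1.17 ± 0.09). With probe sets that can match several transcripts left out, Idh3a was not called (-0.28).

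**Figure D4:**
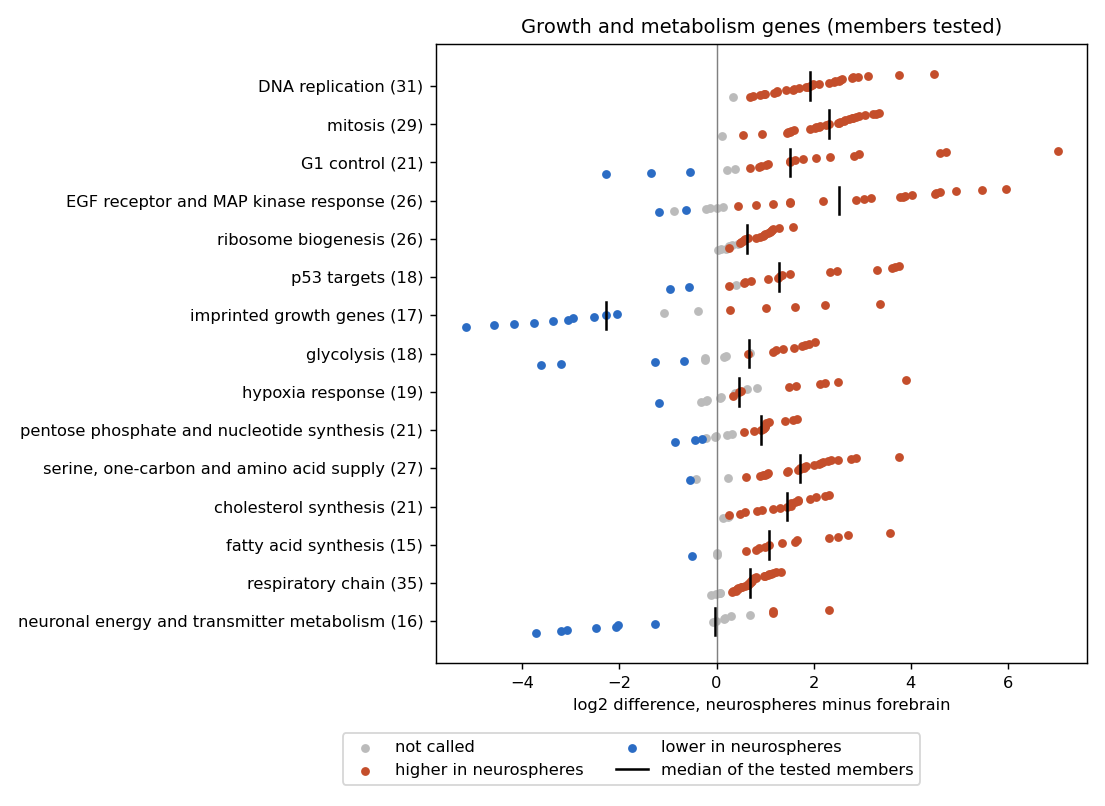
Log2 difference, neurospheres minus forebrain (x axis), of each tested member of 15 growth and metabolism lists, red where called higher, blue where called lower and grey where not called, with the list median as a bar. DNA replication, mitosis, ribosome biogenesis, cholesterol synthesis and the respiratory chain hold no member called lower.

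The 6 culture lines differed among themselves more than the 4 forebrains did, with a median SD of log2 signals of 0.25 and 0.17 over the genes tested. Between 232 genes (line 15) and 393 genes (line 20) lay more than 1 log2 unit from the median of the lines. The imprinted list was uneven, with a median against forebrain of -0.47 in line 20, -1.84 in line 26 and -2.59 to -2.44 in the other 4. Plagl1, an imprinted zinc finger gene, had 4409 in line 20 and 132 to 539 in the others, against 3890 to 4636 in forebrain, and Dlk1 had 3499 in line 20 and 202 to 391 in the others, against 561 to 1310.

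Hypoxia and glycolysis genes moved with the line too. The hypoxia median was 1.39 in line 11, 1.27 in line 3 and 0.57 in line 15, and between -0.02 and 0.29 in the other 3. The glycolysis median was 1.30 in line 11 and 0.18 in line 26. By contrast the mitosis median stayed between 2.08 and 2.52 and the replication median between 1.72 and 2.08. The genes with the widest spread over the lines, picked after their values were seen, included Cygb, a globin of oxygen-poor tissue, at 3773 in line 20 and 8 to 73 in the others, and Mmd2, at 981 to 1503 in the 3 Olig1/2+/+ lines, 37 to 118 in the 3 Olig1/2+/- lines and 2199 to 2370 in forebrain. The passage of each line is not given, and its part in this spread was not tested.

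Null and heterozygous labels occur in both culture and tissue, so a test was run of whether the culture difference itself depends on Olig genotype. The culture labels name Olig1/2, while the tissue labels name Olig2 and the design text Olig1/2. Whether the deleted alleles are the same in culture and tissue was not tested. The contrast took neurospheres labelled null (6 arrays) minus null forebrain (2), less heterozygous neurospheres (3) minus heterozygous forebrain (2). Of 13189 genes tested 72 were called, 51 with a more positive difference in the null (0.387%) and 21 with a more negative one (0.159%). At an unadjusted p under 0.05 there were 1181. The Olig2 probe set read 6177 to 11577 in null neurospheres against 11500 to 18048 in the 6 Olig-expressing lines, ranges that overlap. That of Olig1 read 7064 to 9509 against 20360 to 30893, without overlap, and both were higher in null neurospheres than in any forebrain.

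Id4 had the largest contrast, 4.38 ± 0.37 (adjusted p = 7.1e-05). It read 2574 to 3407 in null neurospheres and 64 to 200 in heterozygous ones, against 6085 and 6873 in null forebrain and 5532 and 6320 in heterozygous forebrain. All 6 null cultures were above all 3 heterozygous ones, while the forebrain genotypes overlapped. Chl1, a neural cell adhesion molecule, went the other way, at -3.64 ± 0.29 (adjusted p = 5.2e-05), with 86 to 177 in null and 1873 to 2166 in heterozygous neurospheres, against 8543 to 10557 in forebrain of either genotype.

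The synaptic vesicle gene Cplx2 read 7108 to 11460 in null and 1608 to 2282 in heterozygous neurospheres, against 2860 and 2875 in null forebrain and 3376 and 3925 in heterozygous forebrain, a contrast of 2.57 ± 0.24. Rgs14 (2.49 ± 0.25), D430041D05Rik (2.33 ± 0.24) and the Golgi GTPase gene Rab6b (1.97 ± 0.19) were also more positive in the null, and the peptide ligand Apln (-2.21 ± 0.25), Mboat2 (-1.62 ± 0.21) and the guidance cue Ntn1 (-1.54 ± 0.20) more negative. Sox11, a factor of young neurons, had a contrast of -2.41 ± 0.32 that lay mostly in the tissue, with 20004 and 20578 in null forebrain and 2855 and 3831 in heterozygous forebrain, against overlapping neurosphere ranges of 6809 to 13023 and 6834 to 10134. As means of their probe sets, Sox11 (-0.01), Mboat2 (-0.89) and Ntn1 (-0.75) were not called.

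In the lists, few members were called in this contrast. Id4 of the astrocyte list was more positive in the null, and Olig1 (-1.36), the mitotic Bub1b and the respiratory Ndufb5 were more negative. In the list of neuronal energy metabolism Pcx and Idh3a were called in opposite directions, Idh3a at -0.93. With 2 forebrain arrays of each genotype, the number of arrays limits the precision of this contrast, and 30, 41 and 41 genes were called without null forebrain 1, null forebrain 2 and heterozygous forebrain 3.

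**Figure D5:**
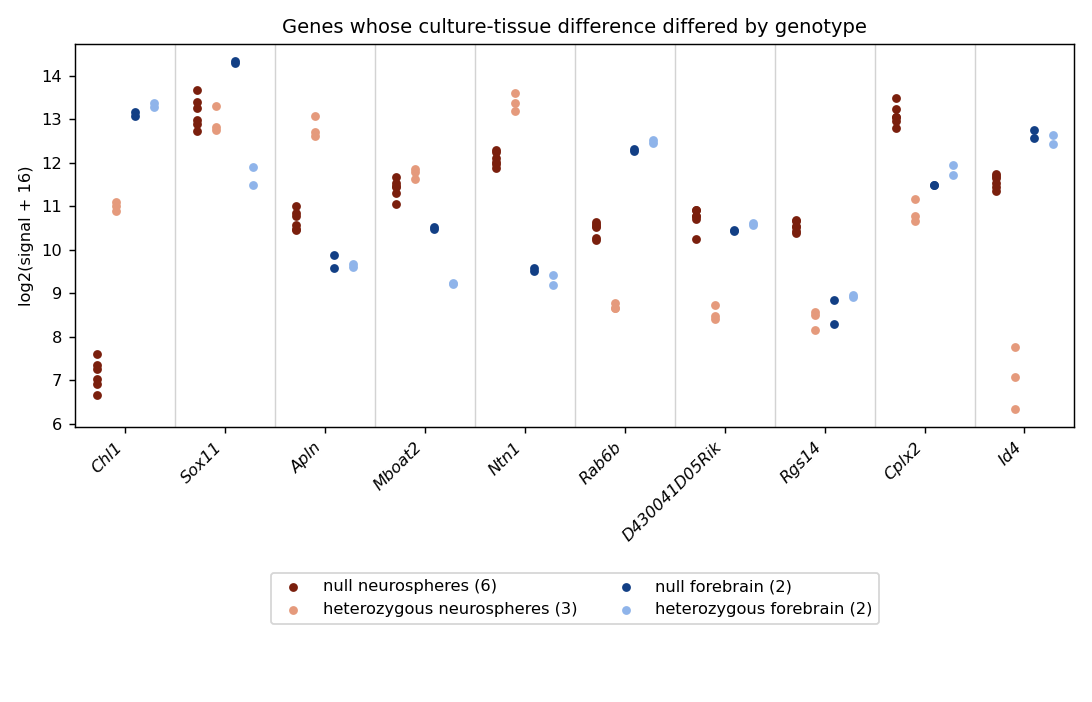
Log2(signal + 16) on each array (y axis) of the 5 genes of smallest p in each direction of the genotype contrast, from left to right null neurospheres, heterozygous neurospheres, null forebrain and heterozygous forebrain. Id4 and Chl1 differ between the neurosphere genotypes, and Sox11 between the forebrain genotypes.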

How the data were processed

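Signals of 45101 probe sets on MOE430 2.0 arrays were used as deposited, as MAS5 intensity on a linear scale, with 1 value per probe set and array and each array scaled by the authors. MAS5 is named in the submitters' processing notes; its version: not given in the sources used here, and detection calls were not used. Control probe sets (64) were dropped, 34945 had 1 gene symbol in the platform annotation, 932 had several, 9224 had none, and 34741 matched the RefSeq gene table. Probe sets with 1 symbol gave 18193 genes, each read from the probe set with the highest mean log2 signal over all 30 arrays; genes without such a probe set were not analysed here.

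Signals were tested as log2(signal + 16), which understates changes of dim genes, with limma 3.58.1 in R 4.3.3 (with the data.table package, version 1.17.8), with 1 mean per genotype group, only the arrays compared in each fit, a variance trend, and Benjamini-Hochberg adjustment over all genes tested. A gene was tested if at least 4 of the arrays compared reached their own median signal (2 arrays for the genotype contrast). The means of wild-type and heterozygous neurospheres counted equally, as did those of null and heterozygous tissue. The series text calls the samples biological replicates, so p-values measure the spread between these samples. No array gives a count, so the number of arrays alone limits the precision.

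The 32 gene lists (731 memberships, 680 with a probe set), the groups and the tests were chosen with earlier results of these data known. Named genes were Olig1, Olig2, Cdkn2a and Egfr, the 12 largest called rises and falls without overlap, up to 4 called members of smallest p in each direction of a list, defining markers, and the 5 of smallest p in each direction of the genotype contrast. Other genes were named to complete short counts or were singled out after their values were seen. Alternatives changed the pseudocount, filter, scaling, probe set, weights, variance trend, threshold and arrays, and fits of each probe set alone were added after seeing the data. The fit was tested on simulated data. Promoters came from RefSeq, with the first entry of a gene used, and figures were drawn with matplotlib 3.10.9 in Python 3.11.15.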

Additional observations from a re-analysis of the deposited data

Results flagged for a closer look

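Single arrays stood apart from the rest of their group for 24 of 420 combinations of gene and group examined (14 in neurospheres, 10 in forebrain), by Dixon's test at the 95% level. Chance flags about 1 in 20 groups, so this number is near what chance gives. No cause was examined for any of them.

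In line 3, Gfap read 1318.5 (other lines 188.4 to 254.3), Dlx1 142.8 (5.3 to 11.4), Tenm2 105.1 (28.8 to 48.8), Clic6 443 (272.2 to 324.7) and Gmps 2084.5 (2472.1 to 2707.7). In line 20, En2 read 735.4 (124.8 to 191.4), Lgals1 20594.4 (29994.2 to 34119), Sox10 223.2 (348.7 to 424.8) and Ntn1 5744.7 (9309.4 to 12339.2). In line 2, Cdkn2c read 3927.5 (3255.8 to 3460.1), Zdbf2 110.8 (240.9 to 331.9) and Nkx2-1 15 (64.1 to 91.5). The microglial gene C1qb read 20.6 in line 11 (89.6 to 155.9), and the neuronal gene Rbfox3 365.1 in line 26 (177.5 to 232).

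Among the forebrains, null forebrain 2 read 230.6 for Irx3 (other forebrains 171.7 to 180.2), 445.5 for Mycl (584.1 to 591.8), 2766.2 for Zdbf2 (1724.2 to 1783), 5423.4 for Ldha (7208.3 to 7538.6) and 4488.3 for Aldoa (5248.4 to 5308.9). Null forebrain 1 read 1504.2 for Cdkn1c (1319.8 to 1327.3), 661.5 for Shmt2 (775.2 to 800.8) and 297.3 for Rgs14 (446.3 to 478.5). Heterozygous forebrain 3 read 1152.1 for Scd1 (1270.1 to 1292.7) and 6.1 for Mog (23.8 to 26.4).

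The difference between culture and forebrain was called as depending on Olig genotype for 12 of the 210 named genes. Over all genes tested it was called for 72 of 13189. Apart from Olig1 and Idh3a, each of the 12 met the naming rule of smallest p in this same contrast. Their number was therefore largely set by the way genes were named. Null minus heterozygous, the contrast was positive for Id4 (4.384), Cplx2 (2.5707), Rgs14 (2.4868), D430041D05Rik (2.3265) and Rab6b (1.9653). It was negative for Chl1 (-3.6426), Sox11 (-2.4103), Apln (-2.2071), Mboat2 (-1.6154), Ntn1 (-1.5385), Olig1 (-1.355) and Idh3a (-0.92854). Sox11, Mboat2 and Ntn1 lost the call as means of their probe sets.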

How the results depend on the processing

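Of the alternatives to the 7696 calls against forebrain, only the test against a log2 difference of 1 moved the count by more than 1.5 times, to 2393 (1073 higher, 1320 lower). Leaving out 1 array gave 7078 to 7602 calls against forebrain, 7434 to 7957 against spinal cord and 30 to 96 of 72 in the genotype contrast. No paired analysis was possible because culture line numbers and forebrain numbers name different things, and no genotype group of cultures shares more than 1 number with a forebrain group. For named genes against forebrain, 2723 of 2831 values under other settings kept direction and call, 84 lost the call, 12 gained it and 12 turned; without 1 array these were 1901, 28, 7 and 0 of 1936. The values that turned were Higd1a -0.10 and Gmps -0.74 as means of probe sets, Sgce -0.80 and Idh3a -0.28 without probe sets that can match several transcripts, and Sox11 1.26 in heterozygous neurospheres against heterozygous forebrain. In null neurospheres they were Emcn -0.32, Otx2 -0.091, Dusp4 1.31, Pax6 0.45, Cplx2 1.43, Rgs14 1.79 and D430041D05Rik 0.21. The cause was not tested. Quantile and 75th percentile scaling moved the median difference to 0.071 and 0.0889 against forebrain, and to 0.11 and 0.13 against spinal cord. A gene under each array's median signal has little more than background behind it, so small differences of dim genes were not detectable here. Culture, EGFRvIII, Ink4a/Arf loss, age and dissected region differ between the groups together, and 4 forebrains without an intact Olig2 pair are the only reference.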

Other observations

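Xist, the noncoding RNA of the inactive X chromosome, had 331.1 and 416.3 in lines 2 and 11 and 27858.8 to 36751.4 in the other 4 lines, against 22681.1 to 24805.5 in forebrain. It had the largest spread over the lines among the genes tested.

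Genes of 2 chromosomes deviated together on single culture arrays. Relative to the mean of the 6 lines and to all genes of the same array, the median deviation was 0.22 on the log2 scale for 412 chromosome 19 genes in line 3, and 0.11 for 471 chromosome 15 genes in line 11. The other medians of a chromosome and line lay between -0.06 and 0.04. DNA content was not analysed here.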
